A study of Homo sapiens with 6 samples.

Results

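The genes described here are the subunits of class I phosphatidylinositol 3-kinase (PI3K) and its brakes: the regulatory subunit genes PIK3R1, PIK3R2 and PIK3R3, the read-through gene AC007192.1 that overlaps PIK3R2, the catalytic subunit genes PIK3CA, PIK3CB and PIK3CD, and the brakes PIK3IP1 and INPP4B. They were chosen by gene name, and all 9 are among the 26184 genes and loci of the deposited table. The 6 RNA samples, 3 of Huh7 P and 3 of Huh7 LR, were sequenced to compare a lenvatinib-resistant line with its parent. Huh7 is a human hepatocellular carcinoma cell line, and all samples carry the genotype WT in the labels. Huh7 P was untreated, whereas Huh7 LR was derived from it by exposure to lenvatinib, an inhibitor of receptor tyrosine kinases, at 1 to 20 μM for about 10 months and kept at 20 μM. Whether lenvatinib was present when the RNA was taken is not stated. Huh7 LR is a single derived line, so that resistance and other differences acquired in separate culture cannot be told apart. The p-values measure the spread between samples of these lines.

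Class I PI3K is a heterodimer of a catalytic p110 subunit and a regulatory p85-type subunit. The regulatory subunit stabilises p110, holds it in check and carries it to phosphorylated tyrosines of activated receptors and adaptors through its SH2 domains. At the membrane the enzyme makes the lipid PIP3, which recruits AKT, and in the liver this branch mediates much of the response to insulin and growth factors. INPP4B is a phosphatase that acts on a downstream lipid of the same series, and PIK3IP1 is a transmembrane protein that binds p110 and lowers its activity.

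The libraries held between 62738937 and 71427573 counts, and 3 counts, the limit allowed by a count of 0, were 0.042 to 0.0478 CPM (counts scaled to library size). The levels below also carry TMM factors. Of the genes and loci, 17531 passed the filter on low counts and were tested with edgeR's quasi-likelihood test. All 10 hepatocyte markers examined were detected, and their summed level was 45236 to 54504 CPM in Huh7 P against 57086 to 59608 CPM in Huh7 LR. Of these, ALB (12951 against 21566 CPM on average), TF, APOA1 and TTR were higher in Huh7 LR, and AFP (22997 against 19620 CPM) and the others did not pass. Summed markers of other cell types also differed between the lines, from 62.4 to 67.7 CPM against 10.2 to 14.0 CPM for 8 leukocyte markers, from 1.98 to 2.2 CPM against 5.0 to 8.02 CPM for 5 fibroblast markers, and from 38.8 to 47.5 CPM against 65.0 to 71.2 CPM for 5 endothelial markers. The leukocyte sum followed LYZ, at a mean of 63.7 CPM against 9.19 CPM, while CD14 (1.88 against 2.71 CPM) and CD74 (0.266 against 0.382 CPM) did not pass. The fibroblast markers COL1A1 and PDGFRB (log2 fold changes 1.84 and 0.84) and the endothelial markers PECAM1 and VWF (0.64 and 2.95) were higher in Huh7 LR. However, VWF had 0, 0 and 8 counts in Huh7 P. With single libraries left out its log2 fold change was 2.34 to 7.45 and its adjusted p reached 0.0614. The markers TYROBP and HLA-DRA (leukocyte), DCN (fibroblast) and CDH5, KDR and TEK (endothelial) had no count in any library, and the part of these markers in the results was not tested. Huh7 P replicate 1 and Huh7 LR replicate 1 stood apart from their groups in how reads were divided between PIK3R2, AC007192.1 and IFI30, and the differences of PIK3R2, AC007192.1, their sum and IFI30 are also given without them.

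Of the 9 genes, 8 passed the filter. At an adjusted p under 0.05, 3 were higher in Huh7 LR (PIK3R2, PIK3R3 and PIK3IP1), 0 were lower and 5 did not pass. Among all genes and loci tested, 23.3% were higher and 22.4% lower by the same rule. With a change above 2-fold at an adjusted p under 0.001, PIK3R2 and PIK3IP1 were higher and 0 were lower, against 4.43% and 1.78% of all tested. The libraries of the lines did not overlap for 5 of the 8 genes, and this was so for 55.9% of all tested. When PIK3R2 and AC007192.1 were counted together, 2 of 7 units, PIK3R3 and PIK3IP1, were higher. The plot of members by library shows these levels.

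**Figure D1:**
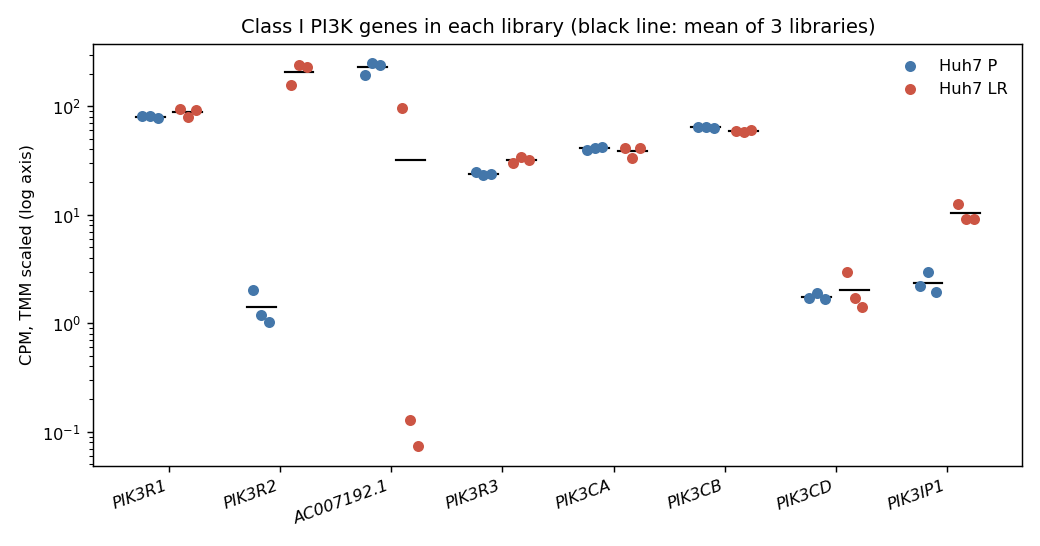
TMM-scaled CPM on a log axis for 8 genes in each of the 6 libraries, with the mean of 3 libraries per line as a black bar; INPP4B, at 0 in every library, is not drawn. PIK3R2 and AC007192.1 exchange places between the lines, PIK3IP1 rises from 2.37 to 10.3 CPM on average, and the points of both lines lie close together for PIK3CA and PIK3CB.

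PIK3R2 encodes p85β. It lies on chromosome 19 (ENSG00000105647, 18153118 to 18170540, plus strand, GRCh38), and AC007192.1 (ENSG00000268173, 18153158 to 18178117) runs over it on the same strand. The annotated transcript of AC007192.1 is marked as subject to nonsense-mediated decay and has 25 exons. Of these, 16 touch exons of PIK3R2, 2 exons with 198 bases are its own, and 7 touch exons of IFI30, which encodes a lysosomal thiol reductase. The shared bases are 3947 of the 5142 exon bases of AC007192.1 (76.8%). AC007192.1 starts 40 bases after PIK3R2, so that the promoter window of RefSeq (GRCh38.p14, chr19:18152913-18153212, plus strand) covers both starts. It is shown with the bases between the starts in capitals, followed by 2 of the joins of the read-through transcript that PIK3R2 lacks, with the first bases of the following exon in capitals.
PIK3R2 promoter: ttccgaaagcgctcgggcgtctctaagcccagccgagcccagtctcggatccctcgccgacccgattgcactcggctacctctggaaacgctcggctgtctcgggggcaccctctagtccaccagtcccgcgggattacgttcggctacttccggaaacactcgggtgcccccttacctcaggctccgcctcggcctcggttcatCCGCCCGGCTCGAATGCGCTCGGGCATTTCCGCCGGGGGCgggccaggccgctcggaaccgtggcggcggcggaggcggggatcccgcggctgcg
exon 16 to exon 17 (18170494 to 18172357): ggcaggttttgtacgGGCTGGTGCCTGGTA
exon 18 to exon 19 (18172877 to 18173804): tctgagccctccatgGCAGCCGCTGCAGTC

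The first of these joins leaves the last exon shared with PIK3R2, and the second enters the exons shared with IFI30. Reads over them would set the read-through transcript apart, but the deposited table holds a total per gene and no value for a join.

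PIK3R2 had 144, 73 and 67 counts in Huh7 P against 10304, 16801 and 15620 in Huh7 LR. AC007192.1 had 14094, 15427 and 15583 counts in Huh7 P against 6274, 9 and 5 in Huh7 LR. IFI30 had 3889, 50 and 78 counts in Huh7 P against 2284, 6569 and 5842 in Huh7 LR. In Huh7 P replicates 2 and 3 the reads of the locus were thus listed almost wholly under the read-through gene, and in Huh7 LR replicates 2 and 3 almost wholly under PIK3R2 and IFI30. Huh7 LR replicate 1 was divided between all 3 genes, and Huh7 P replicate 1 differed from the other Huh7 P libraries in the counts given to IFI30.

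**Figure D2:**
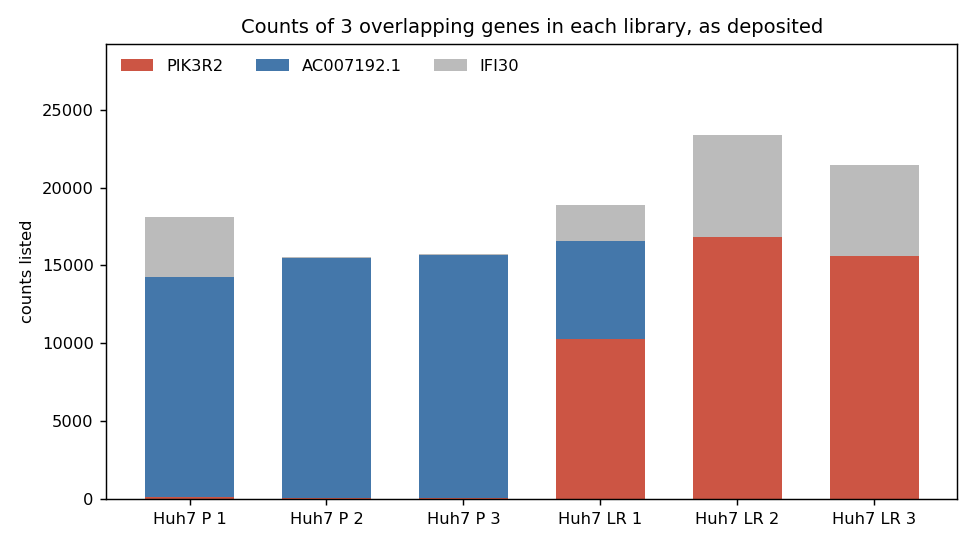
Stacked bars of the counts listed under PIK3R2, AC007192.1 and IFI30 in each library, as deposited and not scaled to library size. The totals run from 15550 to 23379 counts, while the gene that holds most of them changes from AC007192.1 in Huh7 P to PIK3R2 in Huh7 LR.

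On its own, PIK3R2 was higher in Huh7 LR by a log2 fold change of 7.20 (SE 0.24, adjusted p = 2.12e-08, edgeR's quasi-likelihood test), and by 7.72 without both libraries numbered 1. AC007192.1 had a log2 fold change of -2.83 (SE 1.35, 95% interval -5.80 to 0.14) and did not pass (adjusted p = 0.11). Without Huh7 LR replicate 1 it was -11.11 (adjusted p = 3.38e-10), and 1 of the 9 genes was then lower, and without both libraries numbered 1 it was -11.22 (adjusted p = 7.19e-12). It passed in 5 of 15 alternative settings, among them the fit with the replicate numbers as a block. IFI30 did not pass either (log2 fold change 1.92, SE 1.06, adjusted p = 0.163), whereas without both libraries numbered 1 it was higher by 6.47 (adjusted p = 3.13e-10). MPV17L2, the neighbouring gene that shares no exon base with these, differed by 0.10 on the log2 scale (adjusted p = 0.46).

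Of the counts of PIK3R2 and AC007192.1 together, those listed under PIK3R2 were 1.01%, 0.471% and 0.428% in Huh7 P. In Huh7 LR they were 62.2%, 99.9% and, in replicate 3, all but 5 of 15625 counts. The difference of the group means was 86.7 percentage points, and 99.5 without both libraries numbered 1. The 95% Wilson intervals, which cover counting error only, were 0.337% to 1.19% at their outer bounds in Huh7 P against 61.4% to 62.9% in Huh7 LR replicate 1. The shares of the lines did not overlap (exact permutation test, two-sided, p = 0.1, the smallest that 3 samples against 3 allow).

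The sum of both genes was 198, 251 and 239 CPM in Huh7 P against 254, 240 and 229 CPM in Huh7 LR. The groups overlapped, with means of 230 ± 27.7 and 241 ± 12.7 CPM (SD, n = 3). With both genes entered as a single row, the log2 fold change was 0.07 (SE 0.09, 95% interval -0.13 to 0.27, adjusted p = 0.561, edgeR's quasi-likelihood test). The 147-fold difference listed for PIK3R2 alone thus stood beside a difference of the opposite sign in the overlapping gene, and the difference of their sum lay within the replicate spread. The log2 ratio of the mean sums was 0.070. It turned to -0.025 without Huh7 P replicate 1 and to -0.065 without both libraries numbered 1. However, AC007192.1 also shares 997 exon bases with IFI30, which had 3889, 50 and 78 counts in Huh7 P against 2284, 6569 and 5842 in Huh7 LR. The sum of both genes can thus hold reads of IFI30 exons to a differing extent by library, and this part was not tested. This sum alone therefore does not settle whether the level of PIK3R2 differed.

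With IFI30 added, the sum was 253, 252 and 241 CPM in Huh7 P against 289, 334 and 315 CPM in Huh7 LR. These groups did not overlap, and the sum of 3 genes was higher by 0.33 (SE 0.07, 95% interval 0.17 to 0.49, adjusted p = 0.00328, edgeR's quasi-likelihood test). IFI30 took 21.5%, 0.322% and 0.496% of that sum in Huh7 P against 12.1%, 28.1% and 27.2% in Huh7 LR. The sum of PIK3R2 and AC007192.1 in FPKM (fragments scaled to transcript length and library size, as deposited) was 41.1 ± 4.6 in Huh7 P against 55.9 ± 3.14 in Huh7 LR (SD, n = 3). This difference of 0.441 on the log2 scale, larger than that of the counts, stood beside unequal transcript lengths. The deposited counts and FPKM imply 5516 to 5568 bases for AC007192.1 in Huh7 P against 3999 to 4376 bases for PIK3R2 in Huh7 LR.

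PIK3R1 encodes p85α and its shorter forms (ENSG00000145675, chromosome 5, 68215720 to 68301821, plus strand). It had 80.7, 80.6 and 78.7 CPM in Huh7 P against 94.3, 79.8 and 92.3 CPM in Huh7 LR. Replicate 2 of Huh7 LR lay among the Huh7 P libraries and the other two above them. The log2 fold change was 0.15 (SE 0.08, 95% interval -0.02 to 0.32, adjusted p = 0.13, edgeR's quasi-likelihood test), and without Huh7 LR replicate 2 it was 0.23 and passed (adjusted p = 0.00743).

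PIK3R3 encodes p55γ, a regulatory subunit with a shorter amino-terminal part (ENSG00000117461, chromosome 1, 46040140 to 46133036, minus strand). Its levels were 24.8, 23.2 and 23.7 CPM in Huh7 P against 30.2, 33.9 and 31.9 CPM in Huh7 LR. All Huh7 LR libraries lay above all Huh7 P libraries. PIK3R3 was higher by a log2 fold change of 0.42 (SE 0.08, 95% interval 0.25 to 0.59, adjusted p = 0.0012, edgeR's quasi-likelihood test), from 23.9 ± 0.816 to 32.0 ± 1.86 CPM (SD, n = 3). It passed with each library left out in turn, at 0.39 to 0.46. AL358075.4 shares 1292 of its 7410 exon bases on the same strand and had no count in any library.

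PIK3CA encodes p110α (chromosome 3, 179148114 to 179240093, plus strand). It had 39.8, 40.9 and 42.5 CPM in Huh7 P against 41.3, 33.5 and 41.7 CPM in Huh7 LR, and replicate 2 of Huh7 LR lay farthest from the other libraries. The log2 fold change was -0.08 (SE 0.09, 95% interval -0.28 to 0.12, adjusted p = 0.5, edgeR's quasi-likelihood test). KCNMB3 on the opposite strand shares 3403 of the 9494 exon bases of PIK3CA (35.8%), and the library kit named in the labels does not mark strand, so that reads of both genes cannot be told apart there. KCNMB3 had 1002 to 1308 counts per library and a log2 fold change of 0.25 (adjusted p = 0.0364).

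PIK3CB encodes p110β (chromosome 3, 138652699 to 138834938, minus strand). It had 64.7, 64.6 and 63.0 CPM in Huh7 P against 59.5, 58.1 and 60.9 CPM in Huh7 LR. Every Huh7 LR library lay below every Huh7 P library, but the difference was small and did not pass (log2 fold change -0.11, SE 0.06, 95% interval -0.25 to 0.03, adjusted p = 0.19, edgeR's quasi-likelihood test).

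PIK3CD encodes p110δ, a subunit best known from leukocytes (chromosome 1, 9651732 to 9729114, plus strand). It had 122, 117 and 109 counts in Huh7 P against 192, 120 and 96 in Huh7 LR, or 1.70, 1.90 and 1.67 CPM against 2.95, 1.71 and 1.41 CPM. Only Huh7 LR replicate 1 was high. The log2 fold change was 0.20 (SE 0.26, 95% interval -0.37 to 0.78, adjusted p = 0.559, edgeR's quasi-likelihood test), and without that library it was -0.17. CLSTN1 on the opposite strand shares 89 exon bases with PIK3CD, had 12066 to 16801 counts per library and was higher in Huh7 LR (0.23, adjusted p = 0.0249), and its part in the PIK3CD counts was not tested.

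**Figure D3:**
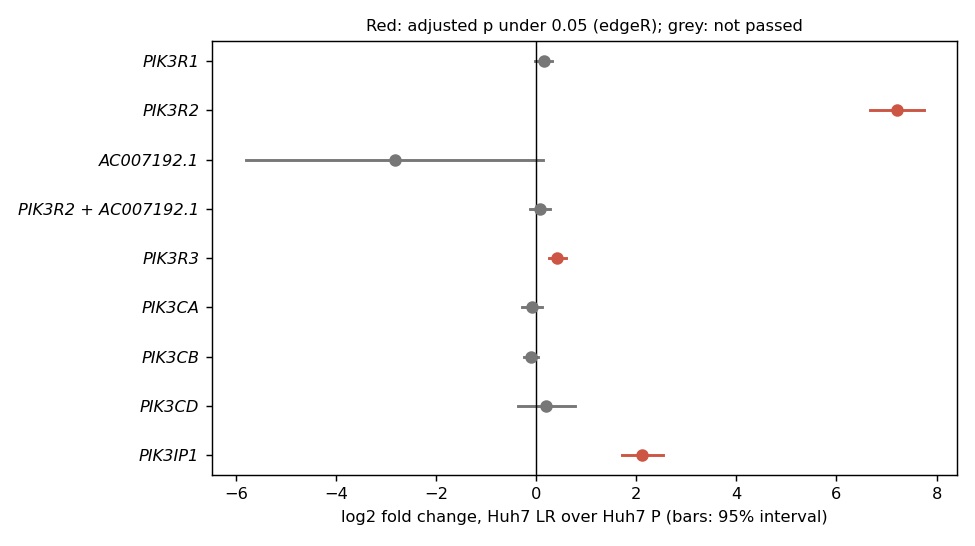
Log2 fold changes of Huh7 LR over Huh7 P with 95% intervals from edgeR, for 8 genes and for PIK3R2 and AC007192.1 entered as a single row; red marks an adjusted p under 0.05. PIK3R2 alone lies at 7.20, the summed row at 0.07, and the interval of AC007192.1 runs from -5.80 to 0.14.

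Levels of different genes were compared per length, in FPKM. The order in Huh7 P was PIK3R2 with AC007192.1 (41.1), PIK3CB (12.8 ± 0.663), PIK3R1 (10.9 ± 0.267), PIK3CA (4.36 ± 0.182), PIK3R3 (3.95 ± 0.155), PIK3IP1 (0.886 ± 0.192), PIK3CD (0.304 ± 0.0171) and INPP4B (0), each SD with n = 3. In Huh7 LR PIK3CB (12.7 ± 0.629) and PIK3R1 (12.3 ± 1.27) lay within each other's spread. PIK3R3 (5.49 ± 0.271) came before PIK3CA (4.08 ± 0.541), which lay within the spread of PIK3IP1 (3.95 ± 0.783), and PIK3CD (0.352 ± 0.142) stayed low. PIK3R2 was thus the most abundant regulatory gene and PIK3CB the most abundant catalytic gene in both lines, with the read-through gene counted into PIK3R2.

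The regulatory genes summed to 51.2, 59.8 and 56.9 FPKM in Huh7 P against 73.1, 76.0 and 71.8 FPKM in Huh7 LR. The catalytic genes summed to 18.4, 17.1 and 16.8 FPKM against 17.9, 15.7 and 17.7 FPKM. The ratio of regulatory to catalytic levels was 2.78, 3.49 and 3.38 in Huh7 P against 4.10, 4.85 and 4.05 in Huh7 LR. The ratios of the lines did not overlap, with means of 3.22 ± 0.382 and 4.33 ± 0.447 (SD, n = 3), while the catalytic sums did overlap. The difference in the log2 ratio was 0.431 (exact permutation test, two-sided, p = 0.1, adjusted over 7 comparisons of shares and ratios p = 0.35). With CPM per kilobase of annotated exons in place of the deposited FPKM it was 0.329, and with PIK3R2 taken alone, without AC007192.1, it was 2.17. The difference depended on the length by which the counts of AC007192.1 were divided, and with the exon length of PIK3R2 for both listings it was 0.198. That length, used again below, does not cover the 997 exon bases that AC007192.1 shares with IFI30, and the part of their reads was not tested. In counts, PIK3R2 and AC007192.1 summed differed by 0.07 on the log2 scale, with overlapping groups.

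**Figure D4:**
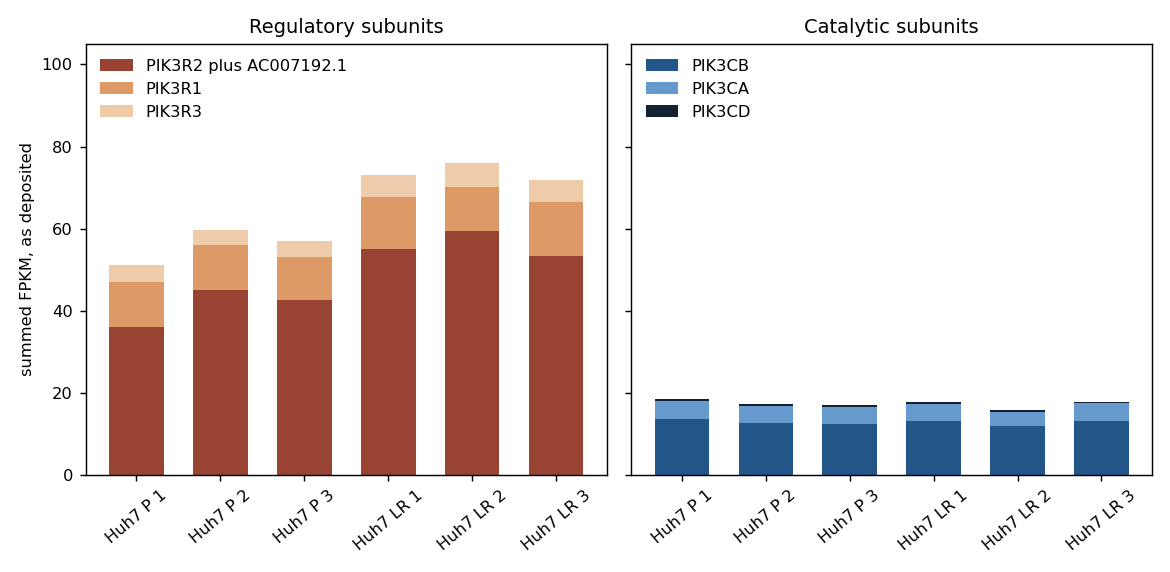
Stacked bars of deposited FPKM in each library, for the regulatory genes (left) and the catalytic genes (right) on the same axis. The regulatory sum is 51.2 to 59.8 FPKM in Huh7 P against 71.8 to 76.0 FPKM in Huh7 LR, and the catalytic sum is 15.7 to 18.4 FPKM over all 6 libraries.

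Within the regulatory sum, PIK3R2 with AC007192.1 held 73.4% ± 2.59 in Huh7 P against 75.8% ± 2.03 in Huh7 LR (SD, n = 3), and the groups overlapped. PIK3R3 held 7.11% ± 0.853 and 7.45% ± 0.184, also with overlap. The share of PIK3R1 was 21.5%, 18.4% and 18.6% in Huh7 P against 17.6%, 14.2% and 18.3% in Huh7 LR. The latter groups did not overlap, but by a narrow margin (exact permutation test, p = 0.1, adjusted p = 0.35), and per kilobase of annotated exons the difference was -0.818 in place of -2.8 percentage points. With the exon length of PIK3R2 for both listings it turned to 0.348 percentage points, and in deposited FPKM with each library left out it was -3.58 to -1.56. Within the catalytic sum, PIK3CB held 73.3% ± 0.367 and 74.2% ± 1.68, PIK3CA 25.0% ± 0.379 and 23.8% ± 1.59, and PIK3CD 1.74% ± 0.134 and 2.05% ± 0.757, with overlap in each case.

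PIK3IP1, the brake that binds the catalytic subunit (ENSG00000100100, chromosome 22, 31281593 to 31292534, minus strand), had 158, 182 and 128 counts in Huh7 P against 819, 640 and 625 in Huh7 LR. These were 2.20, 2.95 and 1.96 CPM against 12.6, 9.14 and 9.16 CPM, so that no Huh7 LR library came down to the range of Huh7 P. PIK3IP1 rose from 2.37 ± 0.517 to 10.3 ± 1.97 CPM (SD, n = 3), and its log2 fold change was 2.12 (SE 0.19, 95% interval 1.71 to 2.53, 4.34-fold, adjusted p = 7.9e-06, edgeR's quasi-likelihood test). It passed with each library left out in turn, at 1.95 to 2.31, and was 1.39 under limma-trend on log2(FPKM + 1), a scale that understates the change of low genes. In bulk RNA, more cells that express a gene and more of its RNA per cell cannot be told apart. No gene in the deposited table shares exon sequence with it. PIK3IP1 was thus the member with the largest difference that did not rest on overlapping genes.

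Of the 2 promoter windows of PIK3IP1, which overlap, the window that holds a forkhead motif (RefSeq, GRCh38.p14, chr22:31292439-31292738, minus strand) is shown because this member had the largest called difference with no overlapping gene, with the motif in capitals. The motif is not in the other window.
PIK3IP1 promoter: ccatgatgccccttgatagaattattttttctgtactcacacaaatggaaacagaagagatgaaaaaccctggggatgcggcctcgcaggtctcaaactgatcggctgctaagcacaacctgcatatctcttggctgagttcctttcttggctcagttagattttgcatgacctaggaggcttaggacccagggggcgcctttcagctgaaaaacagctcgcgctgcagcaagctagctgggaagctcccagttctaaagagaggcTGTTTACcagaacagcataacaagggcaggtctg

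The motif searched was GTAAACA, the core recognised by forkhead factors such as FOXO proteins, on both strands (TGTTTAC on the other), in windows from 250 bases before to 50 bases after each start. In PIK3IP1 its first base lies at position 17, counted from 1 at the RefSeq start. The 8 members with a window had 25 windows, of which 2 held it, 1 each for PIK3IP1 and PIK3CA, against 3.42% of all windows. Over all genes, 1145 of 27305 (4.19%) held it in at least 1 window. A match is a description of the letters and not a binding site.

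INPP4B (ENSG00000109452, chromosome 4, 142023160 to 142847432) had a count of 0 in all 6 libraries and was not tested. The limit of 3 counts allows at most 0.0478 CPM in a library. Its relative INPP4A was lower in Huh7 LR in counts, from 49.0 ± 1.24 to 40.4 ± 2.34 CPM (SD, n = 3; log2 fold change -0.28, SE 0.07, adjusted p = 0.00845, edgeR's quasi-likelihood test), and did not pass under limma-trend on FPKM (adjusted p = 0.0558 to 0.0701).

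Around these members, 94 further genes of the pathway were listed, and 84 of them were tested. Of these, 27 were higher, 19 lower and 38 did not pass, where 23.3% higher and 22.4% lower is the background over all genes and loci tested for this and each list below, and their median log2 fold change was 0.04 against 0.005 over all genes and loci tested. Of 16 lipid and AKT phosphatases tested, 4 were higher, 2 lower and 10 did not pass (median 0.03), with a share of higher genes near the background of 23.3%. INPP5J, a phosphatase that removes the 5-phosphate of PIP3, had 243, 211 and 186 counts in Huh7 P against 628, 465 and 475 in Huh7 LR and was higher by 1.27 (SE 0.17, adjusted p = 0.000127), or by 0.63 under limma-trend on log2(FPKM + 1). PHLPP2, which dephosphorylates AKT, rose from 24.2 to 39.3 CPM (log2 fold change 0.70, SE 0.07) and INPP5K from 17.8 to 27.7 CPM (0.64, SE 0.08). PPP2R1A, the scaffold of phosphatase PP2A, fell from 202 to 166 CPM, and without both libraries numbered 1 it did not pass (adjusted p = 0.0539). Without Huh7 LR replicate 2, 4 phosphatases were lower.

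The class IB genes PIK3CG and PIK3R6 had no count in any library, and PIK3R5 had 0, 0 and 1 counts in Huh7 P against 0, 5 and 0 in Huh7 LR. Of the 7 genes of class IB, II and III tested, 1 was higher, 2 lower and 4 did not pass (median -0.147). PIK3C2A, a class II enzyme that acts in endocytosis, had 9033, 6899 and 7974 counts in Huh7 P against 5319, 3952 and 5389 in Huh7 LR. It fell by 0.73 on the log2 scale (SE 0.12), and PIK3C2B fell by 0.33 (SE 0.08), which did not pass under limma-trend on FPKM (adjusted p = 0.0527 to 0.0852). The single higher gene, the B-cell adaptor PIK3AP1 (0.32, SE 0.12, adjusted p = 0.044), had overlapping groups, and it no longer passed without Huh7 P replicate 1, Huh7 P replicate 2, Huh7 LR replicate 1 or Huh7 LR replicate 3, which left 0.

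Receptors, adaptors and RAS proteins that bring PI3K to the membrane included 6 of 18 higher, 6 lower and 6 not passed (median 0.036), beside a background of 23.3% and 22.4%. EGFR had 25114, 20403 and 20249 counts in Huh7 P against 38547, 41475 and 40119 in Huh7 LR, and rose from 330 ± 20.1 to 590 ± 2.12 CPM (SD, n = 3; log2 fold change 0.84, SE 0.07). The insulin receptor INSR rose from 106 to 146 CPM (0.47, SE 0.08) and ERBB2 from 180 to 223 CPM (0.31, SE 0.07). IGF1R fell from 67.6 to 46.4 CPM, FGFR4, a target of lenvatinib, from 542 to 418 CPM, NRAS from 131 to 96.7 CPM and the docking protein GAB1 from 53.2 to 42.7 CPM. The log2 fold changes of these were -0.54, -0.37, -0.43 and -0.32, and GAB1 did not pass under limma-trend on FPKM (adjusted p = 0.0817 to 0.118).

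In the AKT and mTOR branch, 3 of 22 genes were higher, 7 lower and 12 did not pass (median -0.111), against 23.3% higher and 22.4% lower over all tested. AKT1 and AKT2 did not pass (log2 fold changes 0.13 and 0.05, adjusted p = 0.237 and 0.604), nor did PDPK1, the kinase that activates AKT (-0.04), or MTOR (-0.13). AKT1 passed without Huh7 LR replicate 1 (0.20, adjusted p = 0.0373) and MTOR without Huh7 LR replicate 2 (-0.19, adjusted p = 0.0455). DEPTOR, an inhibitor of mTOR, had 1568, 1358 and 1434 counts in Huh7 P against 783, 612 and 610 in Huh7 LR and fell by 1.15 (SE 0.12). The translation genes EIF4E and EIF4EBP1, the latter an inhibitor of the former, fell by 0.59 and 0.44, and the ribosomal kinase RPS6KB1 fell by 0.50. AKTIP, an AKT-binding protein, rose from 7.93 to 11.6 CPM, and 610 of its 5202 exon bases lie opposite those of RBL2, which had 4816 to 6349 counts. The counts of this branch depended on single libraries, with 1 higher gene without Huh7 P replicate 2, Huh7 P replicate 3 or Huh7 LR replicate 3 and 11 lower genes without Huh7 LR replicate 2.

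FOXO factors, which AKT keeps out of the nucleus, and genes bound by them included 13 of 16 higher, 0 lower and 3 not passed (median 0.483), where 23.3% of all tested were higher and 22.4% lower. This list, like the others, was chosen with earlier results of these data known, so that its share is a description and no test. FOXO4 rose from 6.26 ± 0.449 to 16.4 ± 1.78 CPM (SD, n = 3; log2 fold change 1.39, SE 0.12) and FOXO1 from 6.07 ± 0.156 to 12.0 ± 0.561 CPM (0.98, SE 0.10, or 0.58 under limma-trend on log2(FPKM + 1)). SESN3, a sestrin, rose from 53.1 to 96.8 CPM (0.87, SE 0.14), and G6PC, the last enzyme of glucose production, had 0, 9 and 0 counts in Huh7 P against 90, 35 and 68 in Huh7 LR. INSR, ERBB3 and IRS2 are counted in this list as well as among the receptors. Of 8 other negative regulators of AKT tested, 3 were higher, 2 lower and 3 did not pass (median -0.011). PHLDA1 rose from 17.6 to 30.0 CPM and TSC22D3 from 12.4 to 18.6 CPM, whereas THEM4 fell from 30.7 to 14.9 CPM (-1.04, SE 0.08). The single lower gene left without Huh7 LR replicate 3 was THEM4. All calls in these lists used edgeR's quasi-likelihood test at an adjusted p under 0.05.

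**Figure D5:**
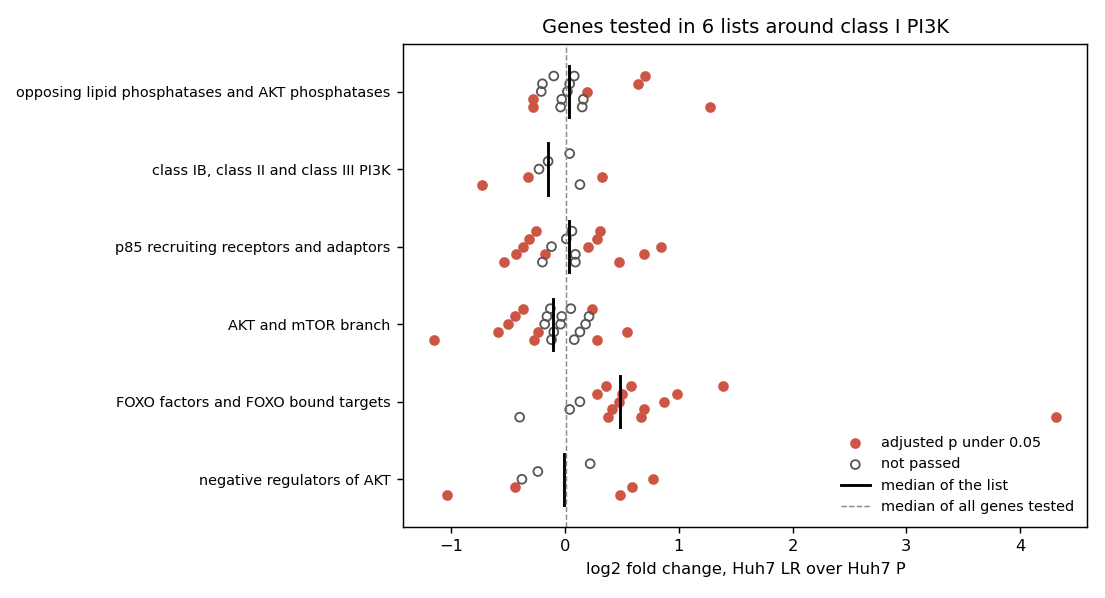
Log2 fold change of Huh7 LR over Huh7 P for each gene tested in the 6 pathway lists; filled points have an adjusted p under 0.05, the black bar is the median of the list and the dashed line that of all genes and loci tested (0.005). The median of the FOXO list lies at 0.483 and the medians of the other 5 lists between -0.147 and 0.036. The 6 lists were chosen with earlier results of these data known.

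The annotated genes whose log2 CPM over the 6 libraries was most like that of PIK3IP1 were PRDM6 (Pearson r = 0.9997), STX12 (0.9975) and the cell cycle inhibitor CDKN1A (0.9964). Those most like PIK3R2 were PHYHIPL (0.9999), TOM1L2 (0.9999) and TSPAN9 (0.9997), with log2 fold changes of 0.88 to 1.31 against 7.20. The 6 points share the division into 2 lines, so that any gene that differs between them with small spread gives a high r.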

How the data were processed

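Poly(A) RNA of 3 Huh7 P and 3 Huh7 LR samples was sequenced, and the methods call the samples of each line independent. The authors deposited, per gene and library, a read count without normalisation and an FPKM value scaled for transcript length and library size. The submitters' processing notes name TopHat2, Cufflinks, DESeq and mm10, a mouse build, although the identifiers are those of human genes. The labels also describe extraction from honeybee larvae. Counting settings, the annotation release and the use of strand are not given in the sources used here. The 34 lines of the table that name no gene were left out.

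Counts were tested in R 4.3.3 with edgeR 4.0.16 (TMM, filterByExpr with a minimum count of 10 and a minimum total of 15, the quasi-likelihood test, Benjamini-Hochberg adjustment over 17531 genes and loci), and standard errors were taken from the log2 fold change and its F statistic. Shares and ratios were compared by exact permutation tests in scipy 1.17.1. Exons and coordinates come from GENCODE release 29 (GRCh38), and promoter windows from RefSeq (GRCh38.p14), where 8 of the 9 members were matched by symbol. The sources used here give no pairing by replicate number, so that no block was used in the main fit. Deviations of same-numbered samples correlated at r = 0.029 to 0.032, and those of differently numbered samples at -0.028 to -0.002. Figures were drawn with matplotlib 3.10.9.

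The members, pathway lists and markers were chosen with earlier results of these data known. Named genes are the members, the neighbours IFI30 and MPV17L2, genes sharing exons with a member, class IB genes, AKT1, AKT2, MTOR and PDPK1, up to 4 of the highest and 4 of the lowest genes per list at an adjusted p under 0.05, and the 3 genes most like AC007192.1, PIK3R2 and PIK3IP1. Some genes that meet this rule are not reported here. Alternatives were DESeq2 1.42.0 (size factors and Wald test), other filters, a replicate block, limma-trend (limma 3.58.1) on log2(FPKM + 0.1) and log2(FPKM + 1), summed overlapping genes, annotated genes alone and each library left out. Leaving out both libraries numbered 1, and dividing the counts of AC007192.1 by the exon length of PIK3R2, were added after seeing the data.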

Additional observations from a re-analysis of the deposited data

How the results depend on the processing

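PIK3R3 and PIK3IP1 were higher in Huh7 LR under all 18 alternatives run, with log2 fold changes of 0.39 to 0.48 and 1.39 to 2.31. PIK3R2 passed in 17 of 18, and as a single row with AC007192.1 it had 0.07 and did not pass. At 3 counts, the limit for INPP4B, PIK3CG and PIK3R6 was 0.042 to 0.0478 CPM in a library. The cause of each change below was not tested.

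With the replicate numbers as a block, 1 member (AC007192.1, log2 fold change -6.20, adjusted p = 0.00655) and 4 negative regulators of AKT were lower, and no other count below moved by over 1.5 times under the block. Each sample correlated best with its own number, a hint from the data and not from the design. The count of lower members was also 1 under limma-trend with a pseudocount of 0.1 or 1 FPKM and without both libraries numbered 1, and 0 to 1 with each library left out. Under limma-trend with and without the filter, and without both libraries numbered 1, lower phosphatases numbered 1 and higher class IB, II and III genes 0, the latter also with no filter on counts. Lower class IB, II and III genes numbered 1 under limma-trend. With no filter on FPKM, lower receptors and adaptors numbered 3, lower genes of the AKT and mTOR branch 4 and lower negative regulators 1. With each library left out, lower phosphatases numbered 2 to 4, higher class IB, II and III genes 0 to 1, higher and lower genes of the AKT and mTOR branch 1 to 4 and 5 to 11, and lower negative regulators 1 to 3.

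The summed log2 ratio of PIK3R2 and AC007192.1 was -0.0247 to 0.14 with each library left out, -0.0649 without both libraries numbered 1, 0.441 in FPKM and 0.332 with IFI30, which also took the difference in the PIK3R2 share to 65.9 percentage points. Per kilobase of exons, the differences in share were -0.818 for PIK3R1, 0.0413 for PIK3R2 with AC007192.1, 0.154 for PIK3CA and -0.64 for PIK3CB. With the counts of AC007192.1 divided by the exon length of PIK3R2, they were 0.348 for PIK3R1, -1.63 for PIK3R2 with AC007192.1 and 1.28 for PIK3R3, and the log2 ratio of regulatory to catalytic levels was 0.198. Without AC007192.1 they were -52.8 for PIK3R1, 70.5 for PIK3R2 and -17.7 for PIK3R3, and the log2 ratio of regulatory to catalytic levels was 2.17. With single libraries left out, the sign turned, always without passing, also for PIK3CA (-0.14 to 0.02, above 0 without Huh7 LR replicate 2), PIK3CD (-0.17 to 0.41, below 0 without Huh7 LR replicate 1, and -0.20 without both libraries numbered 1) and PDPK1 (-0.08 to 0.01, above 0 without Huh7 P replicate 2). The difference in the catalytic share of PIK3CB turned from 0.904 to -0.0503 percentage points without Huh7 LR replicate 2. That of PIK3CD turned from 0.311 to -0.0999 without Huh7 LR replicate 1.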

Other observations

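The gene most like AC007192.1 over the 6 libraries was TOMM6 (Pearson r = 0.9975 of log2 CPM), which encodes a small subunit of the mitochondrial protein import complex. TOMM6 (chromosome 6, 41787662 to 41789898) had 3589, 3658 and 3066 counts in Huh7 P against 2752, 313 and 224 in Huh7 LR, so that Huh7 LR replicate 1 lay near the Huh7 P libraries. All 637 exon bases of TOMM6 are shared on the same strand with AL365205.1, which had 1088 to 3779 counts per library and was higher in Huh7 LR (log2 fold change 1.18, adjusted p = 0.00748, edgeR's quasi-likelihood test). TOMM6 did not pass (log2 fold change -1.65, adjusted p = 0.0796), and with the counts of both genes added the log2 ratio was -0.26. FOLR3, with 14, 10 and 12 counts against 7, 0 and 0, and TRIB3, with 4670, 3862 and 4370 counts against 3866, 2946 and 2875, followed at r = 0.9934 and 0.9911. TRIB3, an inhibitor of AKT, fell by 0.44 on the log2 scale (SE 0.12, adjusted p = 0.0116) and no longer passed without Huh7 LR replicate 3 (adjusted p = 0.0561).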
